A study of Mus musculus with 4 samples.

Results

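The genes described here encode factors that splice, unwind, stabilise and translate RNA. They were chosen by a rule on gene symbols, drawn up with earlier results of these data known: serine/arginine-rich splicing factors (Srsf), heterogeneous nuclear ribonucleoproteins (Hnrnp), splicing factor 3 and pre-mRNA processing factors (Sf3, Prpf), RNA-binding motif proteins (Rbm), U snRNP proteins (Snrn), DEAD- and DEAH-box helicases (Ddx, Dhx), cleavage and polyadenylation factors (Cpsf, Cstf), deadenylases, exonucleases and poly(A)-binding proteins (Cnot, Xrn, Pabp), initiation and elongation factors (Eif, Eef), and ribosomal proteins of the cytosol (Rpl, Rps) and of mitochondria (Mrpl, Mrps). The rule matched 36 of the 2179 genes in the authors' deposited table. A further 52 symbols matched in the part of the per-library expression sheet of the paper that was at hand, which makes 88 matching symbols among 3930, and the values of those 52 are not used here.

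ILC3s (group 3 innate lymphoid cells) were sorted as Lin-GFP+ cells from large intestinal LPLs, the lymphocytes of the lamina propria, of littermate Rag1-/- mice with a GFP reporter allele 3 days after PBS or 1 µg of α-DR3 (4C12). The antibody activates DR3, the receptor through which the cytokine TL1A acts. Both groups carried the Rag1 deletion, which leaves no mature T or B cells, and the same GFP reporter allele, by which the cells were sorted. There were 2 libraries per treatment, made from cells pooled over several mice.

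The deposited table gives 1 mean FPKM (fragments scaled to transcript length and library size, so that levels can be compared between genes) for each group, with no value for a single library. For this reason the ratios below, each between means of 2 libraries, are given with no spread between libraries and no test made here, and the depth of the libraries is unknown. "Higher" and "lower" describe the authors' group mean of α-DR3 against that of PBS, and 1.5-fold is the limit used for counts. The table is also selected on this same contrast: each of its 2179 genes met a p-value limit of 0.05, and the larger of its group means was at least 1 FPKM. A gene that was measured but did not differ is therefore not analysed here, and the counts below describe directions among genes already picked for a difference. In bulk RNA of sorted cells, a change in RNA per cell and a change in the mix of sorted cells cannot be told apart.

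Splicing removes introns from nuclear pre-mRNA through small nuclear ribonucleoproteins and accessory RNA-binding proteins, and RNA helicases remodel the complexes involved and drive the assembly of ribosomes. Translation starts when eIF4E binds the mRNA cap, a step that 4E-BP proteins block, and continues on cytosolic ribosomes with elongation factors. Mitochondria hold ribosomes of their own, built from nuclear-encoded Mrpl and Mrps proteins, which make the subunits of the respiratory chain that mitochondrial DNA encodes. Activated lymphocytes are known for raising protein synthesis.

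After α-DR3, 26 of the 36 members had a higher and 10 a lower group mean, or 72.2% higher, where 54.6% of all genes of the table were higher. At 1.5-fold, 8 members were higher, against a background of 37.1% of all genes of the table, and 8 were lower, against 38.4%. Together 44.4% of members passed 1.5-fold in either direction, and 75.4% of the table did. The 8 lower members include 2 pseudogenes listed at 0 in α-DR3. Without the pseudogenes, 6 of 31 members were higher and 6 lower past 1.5-fold, or 38.7% together. The members thus leaned to the higher side by count but mostly by small ratios: the median absolute log2 ratio was 0.51 for members and 0.79 for the table. Log2 ratios of members ran from -0.89 (Eif4ebp1) to 1.62 (Rpl39l), with a median of 0.43 against 0.39 for the table, leaving out 2 members listed at 0 in one group. The median of the table lay 0.39 above 0, and when all log2 ratios were centred on it 19 members were higher and 17 lower, and 2 were higher and 10 lower past 1.5-fold. The 2 were Mrpl38 and Rpl39l, and Mrpl44, Ddx10, Rbm17, Pabpc4, Rpl23a-ps3 and Rpl9-ps6 no longer passed. Mean expression over all libraries, on the log2 CPM scale, had a median of 4.88 for members and 4.56 for the table.

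**Figure D1:**
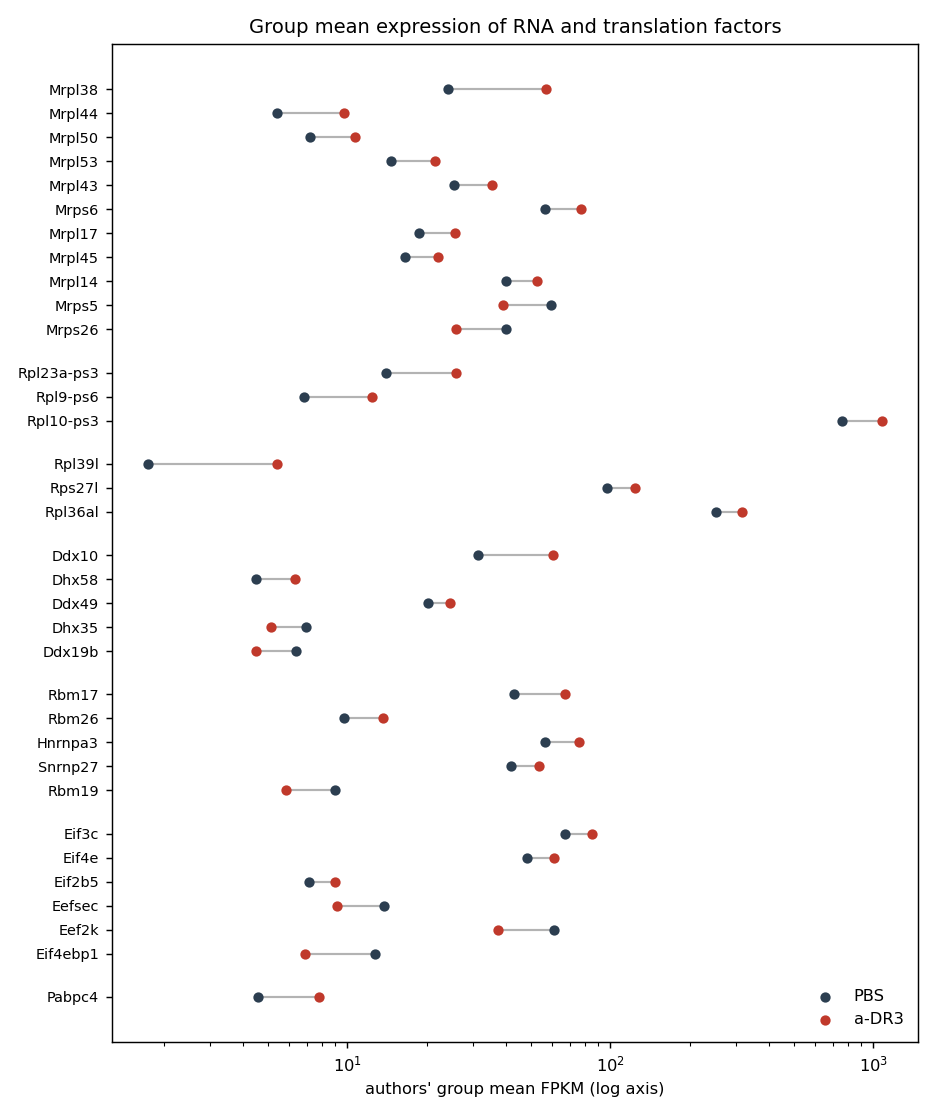
Authors' mean FPKM (log axis) of PBS (dark) and α-DR3 (red) ILC3s for the 34 members listed above 0 in both groups, ordered by family and ratio; no error bars are drawn because the deposited table holds group means and values of single libraries are not used here. Members span from 1.75 FPKM (Rpl39l in PBS) to 1077 (Rpl10-ps3 in α-DR3).

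The families entered the table unevenly. Of the genes that GENCODE M21 annotates as protein-coding, 9.72% were in the table by identifier. The share was 14.1% for mitochondrial ribosomal proteins (11 of 78), 10.1% for initiation and elongation factors (7 of 69), 9.43% for helicases (5 of 53) and 6.06% for splicing and RNA-binding factors (6 of 99). It was 3.66% for cytosolic ribosomal proteins and their paralogs (3 of 82) and 3.03% for the group of cleavage, deadenylation, decay and poly(A)-binding factors (1 of 33). The denominators include genes that ILC3s may not express, so a share says nothing on its own about how many expressed genes differed. Among the symbols with no member in the table were those of the 11 Srsf, 13 Prpf, 9 Sf3, 11 Cnot, 7 Cpsf, 4 Cstf and 2 Xrn genes, so the results on splicing rest on Rbm, Hnrnp and Snrn genes.

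**Figure D2:**
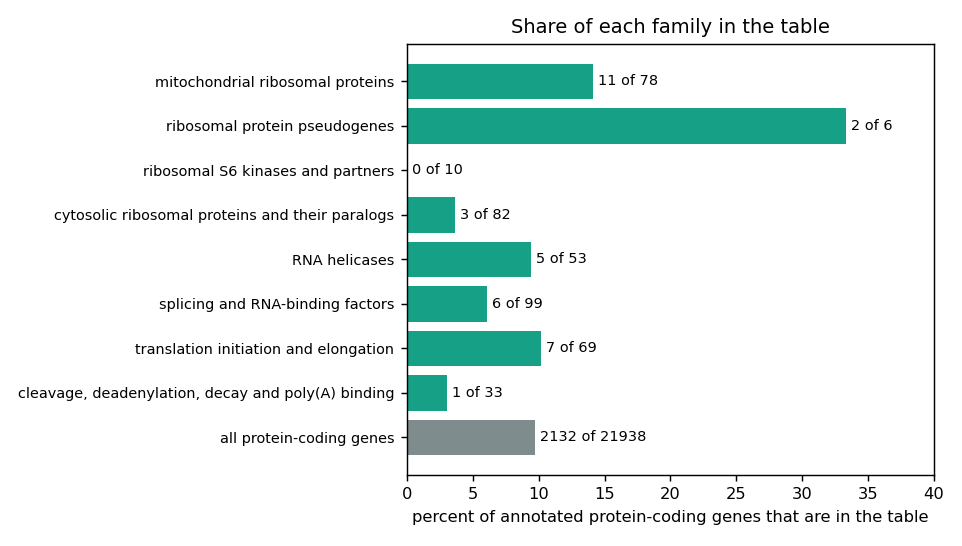
Percent of the protein-coding genes of each family (GENCODE M21 symbols) whose identifier is in the table, with the counts at the bar ends and all protein-coding genes in grey. Mitochondrial ribosomal proteins (14.1%) stand above and cytosolic ribosomal proteins (3.66%) below the 9.72% of all genes; the splicing and translation bars include 1 gene each that the table lists under an older symbol.

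Mitochondrial ribosomal proteins were the largest group, with 11 members. All 8 large-subunit genes were higher in α-DR3, with log2 ratios from 0.40 to 1.24, where 54.6% of the table was higher. Of both subunits 9 of 11 members were higher, also after centring on the table's median, though Mrpl14 then lay only 0.01 above it. Past 1.5-fold in either direction were 4 of 11 (36.4%), fewer than the 75.4% of the table. The 3 small-subunit genes were split: Mrps6 was higher, and Mrps5 and Mrps26 were lower. Only Mrpl38 and Mrpl44 passed 1.5-fold upward, and Mrps5 and Mrps26 passed it downward.

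Mrpl38 (ENSMUSG00000020775.7; chr11:116131817-116138868 of GRCm38, minus strand), a protein of the large subunit, had a group mean of 24.1 FPKM in PBS and 57.0 in α-DR3, which was 2.36 times higher. Mrpl44 (ENSMUSG00000026248.8; chr1:79776018-79781445) had 5.41 FPKM in PBS and 9.66 in α-DR3, 1.79 times higher. These ratios were the highest of the family, and Mrpl38 was the only gene of the family past 2-fold.

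Just under the limit lay Mrpl50, at 7.22 FPKM in PBS and 10.7 in α-DR3 (1.48 times higher), and Mrpl53, at 14.6 and 21.5 (1.47 times higher). The other large-subunit genes, Mrpl43, Mrpl17, Mrpl45 and Mrpl14, had ratios between 1.32 and 1.39. Mrps6, of the small subunit, had 56.2 FPKM in PBS and 77.2 in α-DR3, 1.37 times higher.

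In the opposite direction, Mrps5 (ENSMUSG00000027374.6; chr2:127587222-127606829) had 59.6 FPKM in PBS and 39.0 in α-DR3, 1.53-fold lower. Mrps26 (ENSMUSG00000037740.8; chr2:130563742-130568695) had 40.1 FPKM in PBS and 25.8 in α-DR3, 1.55-fold lower. Summed over the family, FPKM was 308 in PBS and 377 in α-DR3, a ratio of 1.22. The large-subunit genes gave a ratio of sums of 1.54, and the 3 small-subunit genes, whose directions were mixed, one of 0.911. The difference between the subunits was not tested.

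The starts of these genes were read from RefSeq promoters on GRCm38.p6, which cover 250 bases before to 50 after each start and held 28 of the 36 members, 10 of them mitochondrial ribosomal. The core of the site of NRF1, a regulator of nuclear genes for mitochondrial proteins, was searched on both strands as GCGC and TGCGC with any 1 base between them. It occurred in the promoters of 5 of those 10 genes, of 8 of 59 mitochondrial ribosomal genes outside the table (13.6%), and of 5.19% of all 27025 genes with a promoter. The first match in each of the 5 genes is shown because the family is the largest among the members, written on the strand of the gene with the matching letters in capitals; in all 5 the match itself reads on the opposite strand.
Mrpl14: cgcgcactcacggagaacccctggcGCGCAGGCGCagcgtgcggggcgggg
Mrpl17: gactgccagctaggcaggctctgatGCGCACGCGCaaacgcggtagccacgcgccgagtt
Mrpl44: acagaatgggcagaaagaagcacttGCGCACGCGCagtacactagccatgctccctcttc
Mrpl45: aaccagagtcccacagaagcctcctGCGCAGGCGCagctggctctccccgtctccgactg
Mrps26: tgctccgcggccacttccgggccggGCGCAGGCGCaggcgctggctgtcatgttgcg

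These stretches lie at chr17:45686328-45686378 (plus strand), chr7:105811102-105811161 (minus strand), chr1:79775958-79776017 (plus strand), chr11:97315571-97315630 (plus strand) and chr2:130563730-130563786 (plus strand). Mrpl14, Mrpl17, Mrpl44 and Mrpl45 were higher in α-DR3 and Mrps26 was lower, so the core was found in genes of both directions. Elsewhere among the members it occurred in Ddx10 and Eif4e. Other letters searched on both strands were CACGTG (E-box) in 5 of 28 members against 8.09% of all genes, CCGGAAGT (ETS) in 5 of 28 against 4.31%, TGACGTCA (CRE) in 1 of 28 against 2.03%, and AAGATGG followed directly by CGGC (YY1) in 0 of 28 against 0.755%. A start whose first 5 bases are all C or T, the pyrimidine tract typical of ribosomal protein mRNAs, was found in 1 of 28 members, in 18 of 66 cytosolic ribosomal protein genes and paralogs (27.3%), and in 5.28% of all genes. A match describes letters in a window and is not a measurement of binding.

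Cytosolic ribosomal proteins appeared in the table through paralogs and copies instead of the standard subunit genes. The 3 members with a functional symbol, Rpl39l, Rps27l and Rpl36al, are each a second gene for a subunit whose main gene is Rpl39, Rps27 or Rpl36a. All were higher in α-DR3, but Rps27l and Rpl36al were under 1.5-fold and lay below the table's median ratio.

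Rpl39l (ENSMUSG00000039209.6; chr16:10170226-10174911) had the highest ratio of all members, with 1.75 FPKM in PBS and 5.39 in α-DR3, 3.08 times higher. It was also among the least expressed, at a mean of 2.13 CPM (counts scaled to library size) over all libraries. Rps27l had 97.0 FPKM in PBS and 125 in α-DR3 (1.28 times higher), and Rpl36al had 251 and 317 (1.26 times higher), which makes both well expressed with small ratios.

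The coding sequences of Rpl39l and Rpl39 are given because the reads of a paralog can only be counted apart where its bases differ. Both run to 156 bases in GENCODE M21, at chr16:10174310-10174465 and, spliced, within chrX:37082701-37085127, and capitals mark the 23 positions that differ (85.3% identity).
Rpl39l: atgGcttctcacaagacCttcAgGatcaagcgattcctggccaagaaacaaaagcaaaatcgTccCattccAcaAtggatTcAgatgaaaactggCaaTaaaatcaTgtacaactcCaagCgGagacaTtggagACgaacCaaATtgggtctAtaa
Rpl39: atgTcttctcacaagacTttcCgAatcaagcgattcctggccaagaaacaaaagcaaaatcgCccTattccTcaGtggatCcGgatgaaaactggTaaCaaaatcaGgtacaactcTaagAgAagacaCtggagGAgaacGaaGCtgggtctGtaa

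The differences are spread along the sequence, and none of the 828 distinct windows of 50 bases, the read length, in Rpl39l transcripts occurred in a transcript of another gene. Coding identity was 87.9% between Rpl36al and Rpl36a and 76.1% between Rps27l and Rps27, and 22.1% of the windows of Rpl36al and 11.2% of those of Rps27l were shared with other genes.

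The other 5 ribosomal protein entries are copies with pseudogene symbols. The table lists all 5 as protein-coding, whereas GENCODE M21 types Rpl23a-ps3 and Rps13-ps1 as processed pseudogenes and Rpl9-ps4 was not matched in it. Rpl10-ps3 (ENSMUSG00000058443.3; chr9:50344201-50344968) was the most abundant member, with 762 FPKM in PBS and 1077 in α-DR3 (1.41 times higher). Its coding sequence of 645 bases was identical to that of Rpl10, and 96.1% of its windows were shared with Rpl10. Reads of the copy and of Rpl10 can hardly be told apart, so the value may be that of either gene.

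Rpl9-ps6 (chr19:32465865-32466578) had 6.86 FPKM in PBS and 12.4 in α-DR3, 1.81 times higher. It shared 89.2% of its windows with Rpl9, from which its coding sequence differed at 1 position of 579. That position is shown in capitals within bases 236 to 296 of both coding sequences, counted from 1 at the start codon, because it is the only coding base by which a read could be assigned.
Rpl9-ps6: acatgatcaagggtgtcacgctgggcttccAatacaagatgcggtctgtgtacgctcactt
Rpl9: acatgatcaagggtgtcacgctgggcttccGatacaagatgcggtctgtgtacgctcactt

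Rpl23a-ps3 had 14.0 FPKM in PBS and 25.8 in α-DR3 (1.84 times higher) and shared 88.3% of its windows. Rps13-ps1, which shared 87.9%, was listed at 1.63 FPKM in PBS and at 0 in α-DR3, and Rpl9-ps4 at 1.82 FPKM and at 0. Both averaged under 1 CPM, and no fold is given for them. Copies of the same gene, Rpl9-ps6 and Rpl9-ps4, thus stood on opposite sides, and these values are uncertain as levels of separate genes.

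**Figure D3:**
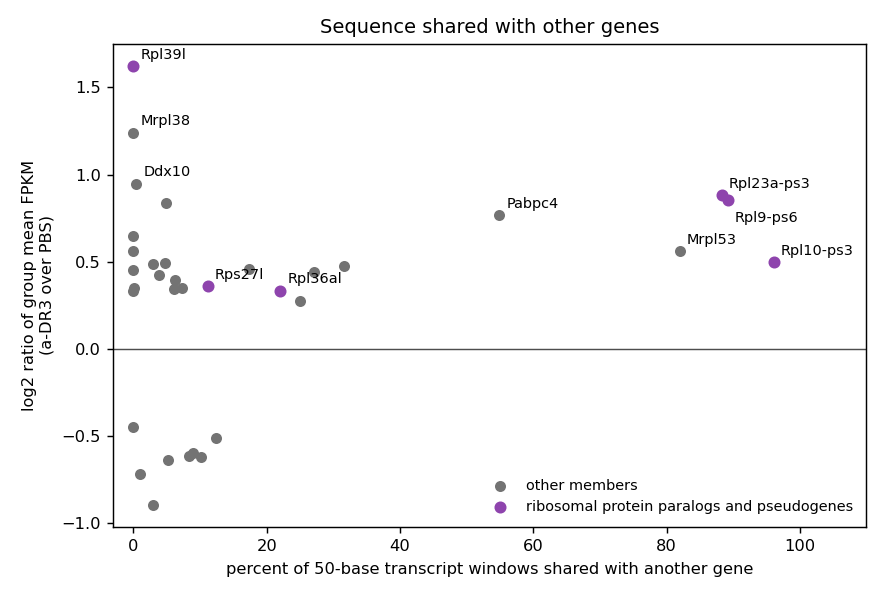
Log2 ratio of group means (α-DR3 over PBS) against the percent of 50-base transcript windows that occur in another gene's transcripts (GENCODE M21), for 34 members; ribosomal protein paralogs and pseudogenes in purple. Pseudogenes sit at 88.3% to 96.1% shared, while Rpl39l, Mrpl38 and Ddx10, which have the highest ratios, sit at or near 0.

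Among the 35 members with transcripts in GENCODE M21, 7 shared no window with another gene, and 6 shared more than 50% (the 4 pseudogenes with transcripts, Mrpl53 and Pabpc4). Mrpl53 shared 82.0% of its windows with Gm42688 and Pabpc4 51.8% with Gm10110, so their values also carry this limit. In all, 14 members shared more than 10%, among them Mrpl43 (31.6%), Hnrnpa3 (27.1%), Ddx49 (25.1%) and Mrps6 (17.3%). The limit applies to these in part. Mrpl38, Mrpl50, Mrpl17, Rbm17, Eif2b5, Dhx35 and Rpl39l shared none.

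RNA helicases contributed 5 members, of which 3 were higher and 2 lower, with 2 higher and 3 lower after centring. As deposited, 60% of them were higher, near the 54.6% of the table. Past 1.5-fold in either direction were 20% of them and 75.4% of the table. Ddx10 (ENSMUSG00000053289.6; chr9:53098635-53248053), a DEAD-box helicase of ribosome assembly, had 31.4 FPKM in PBS and 60.5 in α-DR3, 1.93 times higher, and was the only helicase past 1.5-fold as deposited. After centring its log2 ratio was 0.56, under that limit, and Dhx35 (-0.83) and Ddx19b (-0.90) passed it downward instead. Ddx49, another helicase of the nucleolus, had 20.2 and 24.5 FPKM (1.21 times higher), which lay below the table's median ratio.

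Dhx58, which encodes the RIG-I-like receptor LGP2, had 4.50 FPKM in PBS and 6.31 in α-DR3 (1.40 times higher). On the lower side, Dhx35, a spliceosome-associated helicase, had 6.97 and 5.12 FPKM (1.36-fold lower). Ddx19b, an mRNA export helicase, had 6.37 and 4.47 FPKM (1.43-fold lower), and 12.4% of its windows were shared with Ddx19a.

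Splicing and RNA-binding factors also numbered 5, with 4 higher and 1 lower, or 3 higher and 2 lower after centring. As deposited, 80% of them were higher, where 54.6% of the table was higher. In either direction 2 of the 5 (40%) passed 1.5-fold, fewer than the 75.4% of the table. Rbm17 (ENSMUSG00000037197.5; chr2:11585437-11604153), the alternative splicing factor SPF45, had 43.0 FPKM in PBS and 67.3 in α-DR3, 1.56 times higher, the highest ratio of this family. Hnrnpa3, an abundant pre-mRNA-binding protein, had 56.2 and 76.3 FPKM (1.36 times higher). Snrnp27, of the U4/U6.U5 tri-snRNP, had 41.9 and 53.4 FPKM, and its 1.27 times higher mean lay below the table's median ratio.

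Rbm26 had 9.72 FPKM in PBS and 13.7 in α-DR3 (1.41 times higher). Rbm19 (ENSMUSG00000029594.8; chr5:120116465-120198981), which despite its symbol acts in ribosome assembly, had 8.96 and 5.83 FPKM, 1.53-fold lower. The rule also passed over 1 listed gene because the table holds it under an older symbol: Hnrnpll (as Hnrpll; ENSMUSG00000024095.7; chr17:80029487-80062334), which regulates the alternative splicing of CD45 in lymphocytes. Chosen after its values were seen, it had 5.34 FPKM in PBS and 12.95 in α-DR3, 2.43 times higher, a larger ratio than that of any splicing member. The table likewise lists Eef2kmt as Fam86, at 16.2 and 11.6 FPKM.

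Translation factors were the family with the most balanced directions: 3 of 6 were higher and 3 lower, and after centring all 6 were lower than the table's median. The 3 higher members were under 1.5-fold. The 3 lower members were all past it, where 38.4% of the table was lower by that much. Among the lower members, Eif4ebp1 and Eef2k encode inhibitors, so only Eefsec is itself a translation factor.

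Eif4ebp1 (ENSMUSG00000031490.5; chr8:27260329-27276674), the gene of the inhibitor 4E-BP1, had 12.8 FPKM in PBS and 6.87 in α-DR3, 1.86-fold lower, the lowest ratio of the members with values above 0. Its target Eif4e, the cap-binding protein, had 48.2 FPKM in PBS and 61.0 in α-DR3, 1.27 times higher. The FPKM of Eif4e was thus 3.78 times that of Eif4ebp1 in PBS and 8.89 times in α-DR3. This pair was not planned in advance, and the ratio of Eif4e alone lay below the table's median ratio. These are RNA levels, and they give no measure of the phosphorylation by which 4E-BP1 is regulated.

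Eef2k (ENSMUSG00000035064.9; chr7:120842831-120907450), a kinase that inhibits the elongation factor eEF2, had 61.2 FPKM in PBS and 37.2 in α-DR3, 1.64-fold lower. Eefsec, the elongation factor for selenocysteine, had 13.8 and 9.09 FPKM, 1.51-fold lower and just past the limit. The levels of Eif3c, a scaffold subunit of eIF3, were 67.0 FPKM in PBS and 85.3 in α-DR3 (1.27 times higher), and those of Eif2b5, the catalytic subunit of eIF2B, 7.11 and 8.96 (1.26 times higher). Summed over the family, with the inhibitor genes Eif4ebp1 and Eef2k included, FPKM was 210 in PBS and 209 in α-DR3.

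Pabpc4, a cytoplasmic poly(A)-binding protein, was the only member from the decay and polyadenylation symbols. It had 4.58 FPKM in PBS and 7.79 in α-DR3, 1.70 times higher, with the shared windows given above.

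**Figure D4:**
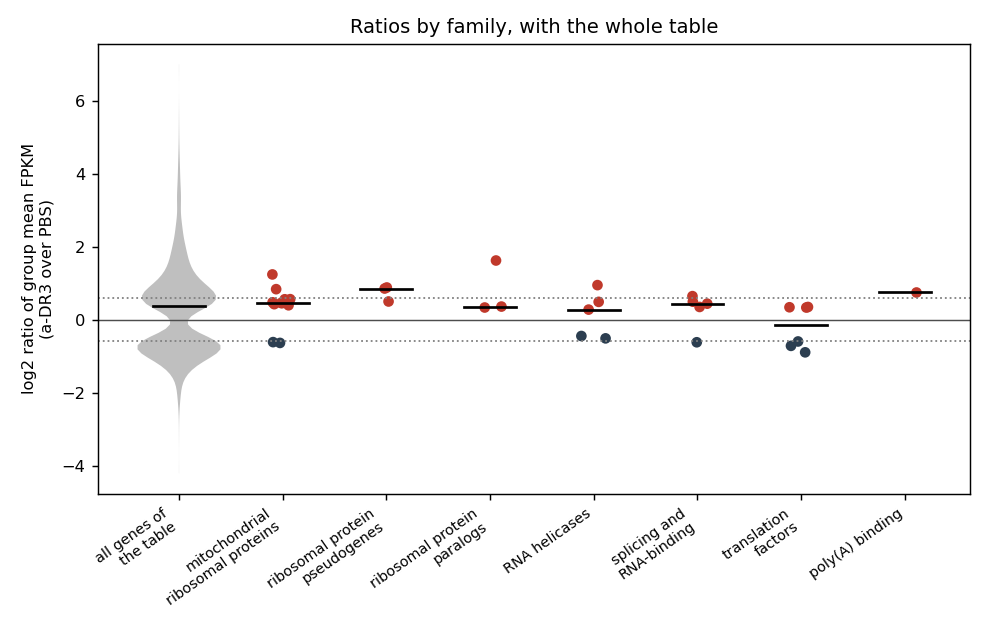
Log2 ratio of group mean FPKM (α-DR3 over PBS) for all 2169 genes of the table with both means above 0 (grey shape) and for the 34 members with both means above 0 (red higher, dark lower); black lines are medians, dotted lines 1.5-fold. Of the members 20 lie between the dotted lines. Translation factors, grouped here with the inhibitor genes Eif4ebp1 and Eef2k, are the only family with a median below 0 (-0.13). Relative to the table's median of 0.39, the medians of helicases (0.28) and ribosomal protein paralogs (0.36) are lower too.

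Further genes of these pathways were taken from lists of symbols outside the rule, which were drawn up with earlier results of these data known, so their counts are descriptions. Of 46 genes of mRNA decay and surveillance 6 were in the table, and all 6 were lower past 1.5-fold, against the 38.4% of the table. The highest and lowest ratios were those of Tob1, a recruiter of the CCR4-NOT deadenylase, at 55.0 FPKM in PBS and 36.4 in α-DR3 (1.51-fold lower), and Smg6, the endonuclease of nonsense-mediated decay, at 15.8 and 8.14 (1.94-fold lower). Btg2, of the same family as Tob1, had 695 and 358 FPKM (1.94-fold lower), and Tob2, Upf3b and Ttc37 were 1.61-fold to 1.84-fold lower. Thus 3 of the 6 are BTG/Tob genes, which hold anti-proliferative adaptors of deadenylation.

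Of 40 aminoacyl-tRNA synthetase genes 5 were in the table, 4 higher and 1 lower, with 3 and 1 past 1.5-fold, or 4 of 5 where 75.4% of the table passed in either direction. Cars, the cytosolic cysteinyl-tRNA synthetase, had 20.5 FPKM in PBS and 37.1 in α-DR3 (1.81 times higher). The mitochondrial synthetases did not share a direction: Iars2 and Lars2 were higher, and Rars2 was 1.95-fold lower, at 7.93 and 4.06 FPKM. From a list of 27 genes of mTORC1 signaling and the integrated stress response, 4 were in the table, 3 higher and 1 lower and all past 1.5-fold, as were 75.4% of all genes of the table. Atf5, a transcription factor of the stress response, had the highest ratio (0.855 and 1.95 FPKM, 2.28 times higher), and Pdcd4, an inhibitor of the helicase eIF4A, the lowest (36.9 and 15.8 FPKM, 2.34-fold lower). Ddit4, an inhibitor of mTORC1, and Rptor, a subunit of mTORC1, were higher.

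Other lists held few genes of the table. Of 69 spliceosome and RNA-binding genes 4 were in it, all higher and none past 1.5-fold, with log2 ratios from 0.23 to 0.58. By comparison, 54.6% of the table was higher and 75.4% of it passed 1.5-fold in either direction. Of these 4 spliceosome and RNA-binding genes, 3 lay below the median ratio of the table. Of 61 ribosome biogenesis genes 2 were in it, both lower, of which Rrp12 passed 1.5-fold (4.33 FPKM in PBS and 2.67 in α-DR3, 1.62-fold lower). That limit was passed downward by 38.4% of the table. Of 33 other genes of mitochondrial translation, Tufm alone was in the table (30.1 and 38.5 FPKM), higher but below the table's median ratio. The 3 listed of 15 proliferation genes were lower, 2 of them past 1.5-fold, where 38.4% of the table was lower by that much.

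**Figure D5:**
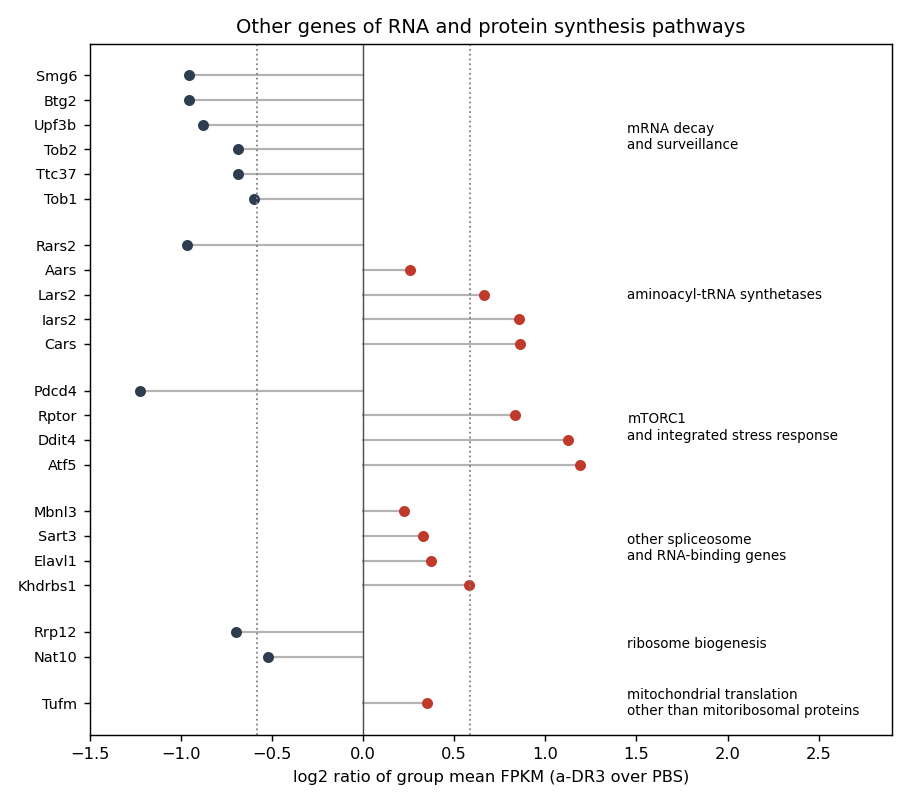
Log2 ratio of group mean FPKM (α-DR3 over PBS) for the 22 genes of 6 pathway lists that are in the table; dotted lines mark 1.5-fold. All 6 decay and surveillance genes lie left of the lower line, from -0.96 to -0.60, whereas spliceosome genes lie between 0 and the upper line.

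Markers of the sorted cells and of other cells were looked up in the table. Of 14 ILC3 markers 8 were in the table, 6 higher and 2 lower, with 4 and 2 past 1.5-fold, a share near the 75.4% of the table. Among them were Thy1, with 163 FPKM in PBS and 268 in α-DR3, Il22, with 17424 and 44537, and Ncr1, with 460 and 279 (1.65-fold lower). Of 21 markers of myeloid and dendritic cells 9 were in the table, all of them higher past 1.5-fold, as were 37.1% of all genes of the table. Their FPKM summed to 54.1 in PBS and 170 in α-DR3, and to 11.8 and 99.1 without Zbtb46, the most abundant of them. Of 9 stromal markers 6 were in the table, all higher past 1.5-fold, with sums of 6.84 and 25.6 FPKM, and of 6 B cell markers Cd79b was, at 10.9 and 27.2 FPKM, although Rag1-/- mice lack mature B cells. The sort took Lin- cells, and in the flow cytometry of the study Lin stood for CD3, B220, CD11b and CD11c, a gate that would remove T cells, B cells and most myeloid and dendritic cells. No marker of granulocytes, T cells or epithelium was among the genes of the table. The part of these cells in the ratios of the members was not tested.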

How the data were processed

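Poly(A) RNA of sorted ILC3s was sequenced in 4 libraries, 2 per treatment. Per the labels and methods, the authors mapped paired 50-base reads to GRCm38.p5 with STAR 2.5, quantified genes with RSEM 1.2 on GENCODE M16 and compared groups with edgeR 3.18.1. The authors deposited FPKM as 1 mean for each group, and the deposited log2 CPM is an average over all libraries. The column headed wt was taken as the PBS group, the other arm of the comparison. Columns of the authors' comparison (log2 fold change, likelihood ratio, p-value and FDR) were not used, except that each deposited p-value was read to test how the table was filtered.

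Ratios of group means were computed without a pseudocount, in Python 3.11.15 with numpy 2.4.6 and pandas 2.3.3; genes at 0 in one group count as past 1.5-fold. The calculation was tested on simulated data. All members were named; those past 1.5-fold and the extremes of each family received full values, and of the other lists the extremes. Members and lists were chosen with earlier results of these data known. Replicates share only numbers in the labels. Identifiers of 35 members, and 2149 of the 2179 genes, were found in GENCODE M21 (GRCm38), the source of coordinates and transcripts. Promoters came from RefSeq (GRCm38.p6). Coding sequences are shown where protein sequences had been planned. The full reporter genotype and 1 marker gene are not reported here.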

Additional observations from a re-analysis of the deposited data

How the results depend on the processing

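Values of single libraries in the paper's sheet are not used here, so no library was left out and no count model or limma fit was made. No paired analysis was possible because the deposited columns, the only values used, hold group means and carry no replicate numbers. With 1 or 0.1 added to both means, the counts and medians of members and of the table stayed within 1.5 times or 0.1 log2 of those reported, but with 1 added Rbm19 (log2 ratio -0.54) and Eefsec (-0.55) no longer passed 1.5-fold, which left 6 lower members. A mean over 5 FPKM left 8 higher and 6 lower members past 1.5-fold, and 517 higher and 625 lower of the 1638 genes then left in the table. Centring on the table's median, which is itself drawn from genes picked for a difference, gave 2 higher members, a member median log2 ratio of 0.048, and 460 higher genes of the table, so 16.7% of members past 1.5-fold were higher in place of 50%, and 31.8% of the table in place of 49.1%. A 2-fold limit left 2 members higher (Mrpl38 and Rpl39l) and 2 lower (the pseudogenes at 0), and 446 higher and 257 lower genes of the table. Without pseudogenes and kinases, 6 members were higher and 5 lower. No member past 1.5-fold changed direction under a pseudocount or centring, whereas Ddx49, Snrnp27, Eif4e, Eif3c, Eif2b5, Rps27l and Rpl36al, all higher as deposited, lay below the centre.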
